A study of Homo sapiens with 12 samples.

Results

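ZFP36, ZFP36L1, ZFP36L2, ZC3H12A, BTG1, BTG2 and BTG3 are 7 genes whose proteins shorten the life of messenger RNAs. They were found by their Ensembl identifiers among the 58051 genes of the count tables, all 7 were abundant enough to be tested, and 27915 genes were tested in all. RNA had been sequenced from HCT116, an established line of human colon carcinoma cells, transfected with a small interfering RNA (siRNA) against PFDN2, with one against PFDN5, or with a control siRNA. PFDN2 and PFDN5 encode subunits of prefoldin, which hands newly made actin and tubulin to a chaperonin. Every culture went without serum for 48 h, beginning 24 h after its siRNA, and was collected either at that point or 90 min after serum was returned. The 6 groups (siControl, siPFDN2 and siPFDN5, each before and after serum) had 2 libraries each, named replicate 1 and replicate 2. The labels do not say whether replicates came from separate cultures, so p-values measure the spread between these libraries, which may be technical.

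ZFP36 (also called tristetraprolin), ZFP36L1 and ZFP36L2 are zinc finger proteins that bind AU-rich elements in the 3′ untranslated regions of messenger RNAs and bring in the CCR4-NOT complex, which removes the poly(A) tail. ZC3H12A (also called Regnase) is an endoribonuclease that cleaves stem-loops in the 3′ untranslated regions of messenger RNAs for inflammatory proteins. BTG1, BTG2 and BTG3 belong to a family of antiproliferative proteins that contact the deadenylase subunits of CCR4-NOT. Several of these genes are known as early response genes, induced within minutes to hours of a growth signal and then shut off.

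Sequences of the AU-rich kind lie in the messages of the decay regulators themselves. The core UAUUUAU was searched in the longest annotated 3′ untranslated region of each gene (GENCODE release 29, GRCh38). It was found 3 times each in ZFP36, ZFP36L1 and ZFP36L2, 2 times in BTG3, 1 time each in BTG1 and BTG2, and 0 times in ZC3H12A. The transcript that held most of each gene's estimated counts had the same number of matches. For 5 of the 6 genes with a match, 1 window of 27 bases is shown to let the flanks be compared, 5′ to 3′ as RNA, with UAUUUAU and any part of a neighbouring match in capitals.
ZFP36: AUgacgacuuUAUUUAUucuaauauga
ZFP36L1: acuguuggauUAUUUAUuuuagaaauu
ZFP36L2: cuauuuaacuUAUUUAUuaucuuguga
BTG1: auagauuucuUAUUUAUcugaagguau
BTG3: uggacuugagUAUUUAUauauugugca
On GRCh38 the windows lie at chr19:39409197-39409223 on the plus strand for ZFP36, chr14:68788078-68788104 on the minus strand for ZFP36L1, chr2:43223449-43223475 on the minus strand for ZFP36L2, chr12:92140771-92140797 on the minus strand for BTG1 and chr21:17593832-17593858 on the minus strand for BTG3. The windows of the 3 ZFP36 family genes extend the core to the nonamer UUAUUUAUU, which contains it. That nonamer was found 1 time in each of these 3 genes and 0 times in the other 4. Among genes whose 3′ untranslated region was within 20% of the same length, 1.16% had 3 or more UAUUUAU matches for the 713 bases of ZFP36, 3.56% for the 1917 bases of ZFP36L2, 7.24% for the 2828 bases of ZFP36L1, and 2.48% had 2 or more for the 440 bases of BTG3. Of genes like BTG1 in length 56.6% had at least its 1 match, and of those like BTG2 38.0%. Of 19436 coding genes with a 3′ untranslated region, 30.9% had UAUUUAU and 8.2% had the nonamer. A match describes the letters in the message and does not show that a protein binds it.

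All 7 genes are protein coding. On GRCh38, ZFP36 (ENSG00000128016) spans chr19:39406813-39409412 on the plus strand, ZFP36L1 (ENSG00000185650) chr14:68787660-68796253 on the minus strand and ZFP36L2 (ENSG00000152518) chr2:43222402-43226609 on the minus strand. ZC3H12A (ENSG00000163874) spans chr1:37474552-37484379 on the plus strand. BTG1 (ENSG00000133639) spans chr12:92140278-92145897 on the minus strand, BTG2 (ENSG00000159388) chr1:203305491-203309602 on the plus strand and BTG3 (ENSG00000154640) chr21:17593653-17612947 on the minus strand. BTG1 overlaps AC025164.1 and LINC01619, and BTG3 overlaps BTG3-AS1. Counting used no strand information, so reads of the overlapping genes cannot be told apart and the values of BTG1 and BTG3 are uncertain to that extent.

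Promoter windows from RefSeq (GRCh38.p14, 250 bases before to 50 after the start) were held for 6 of the 7 genes, all but ZFP36L2. From them 4 stretches of 30 bases are shown because they hold matches to motifs of factors or elements known from early response promoters, written 5′ to 3′ on the gene's strand with the matches in capitals.
ZFP36L1: agggagtGGAATGagTGACGTCAcagccgc
BTG2: GCGAGGGCGggggctggggtgGCGGGGGCG
ZC3H12A: cgcgccgccccaTATAAAggcgccgccgtc
BTG1: ttttcgtggcacTATAAAgggtgctgcacg
The ZFP36L1 stretch (chr14:68793454-68793483, minus strand) holds TGACGTCA, the cyclic AMP response element, which 1.85% of 35116 promoter windows held, and GGAATG, a TEAD motif held by 14%. ZFP36L1 had 2 windows, and its matches all lie in the one at chr14:68793367-68793666. The other, chr14:68796194-68796493, holds the 5′ end of the gene span given above and matched none of the motifs searched. The BTG2 stretch (chr1:203305347-203305376, plus strand) holds 2 matches of GCGNGGGCG, an EGR motif held by 9.43%. ZC3H12A (chr1:37474541-37474570, plus strand) and BTG1 (chr12:92145862-92145891, minus strand) hold TATAAA, as did 11.5% of windows. GCGNGGGCG was also matched 1 time each in the windows of ZFP36L1 and ZC3H12A, and GGAATG 1 time in that of ZFP36. Also searched, on both strands, were TGANTCA (7.71% of windows), CACGTG (7.26%), the CArG box (1.29%) and the NF-kB site (5.91%), with 0 matches in the windows of the 6 genes. These are letters in a window, and nothing about binding was measured.

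Libraries held between 59784425 and 136504590 counts over gene bodies, and levels of 1 gene across libraries are in CPM, counts scaled to a common library total. The library of siPFDN2 before serum replicate 2 stood apart: GC content and deviation from the other libraries had a Spearman's rho, taken across genes, of 0.69 there and between -0.28 and 0.13 in the other 11. Its group had an SD of 0.681 for the log2 difference of its replicates, and the other 5 groups had 0.116 to 0.301. Before serum PFDN2 measured 7.55 and 8.49 CPM with its siRNA against 11.5 and 11.2 CPM in siControl, and at 8.73 and 9.47 CPM after serum against 19.5 and 16.3 CPM. PFDN5 before serum measured 41.0 and 44.2 CPM with its siRNA against 76.8 and 68.9 CPM in siControl. After serum the libraries labelled siPFDN5 had 67.5 and 68.6 CPM of PFDN5 and siControl had 67.9 and 74.0 CPM, so the label of those libraries is not borne out by the target. Of 7 epithelial markers, 6 lay between 59.8 and 1224 CPM over all libraries, while CDX1 had at most 2 counts in a library. Of 8 markers of blood, fibroblasts and endothelium, COL1A1 reached 17.4 CPM and the other 7 at most 1.71 CPM.

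Serum raised the decay regulators. In siControl ZFP36 rose 4.01-fold, BTG2 2.82-fold, BTG1 2.58-fold, ZFP36L2 2.43-fold, ZC3H12A 2.31-fold and ZFP36L1 1.73-fold, while BTG3 stood 1.18 times higher and did not pass the test. In bulk RNA a change in the share of cells that express a gene and a change of RNA per cell cannot be told apart. So 6 of the 7 were called higher at an edgeR adjusted p under 0.05, against 2.47% of all genes tested. For all 7 genes and in all 3 siRNAs, both libraries after serum lay above both libraries before it. The share of all genes with such a separation was not counted, so this result cannot be set against all genes. Some gaps were small, as for ZFP36L1 under the label siPFDN5 (highest before serum 134 CPM, lowest after it 137 CPM). The median log2 fold change of the 7 genes in siControl was 1.28, and that of all genes tested was 0.01.

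**Figure D1:**
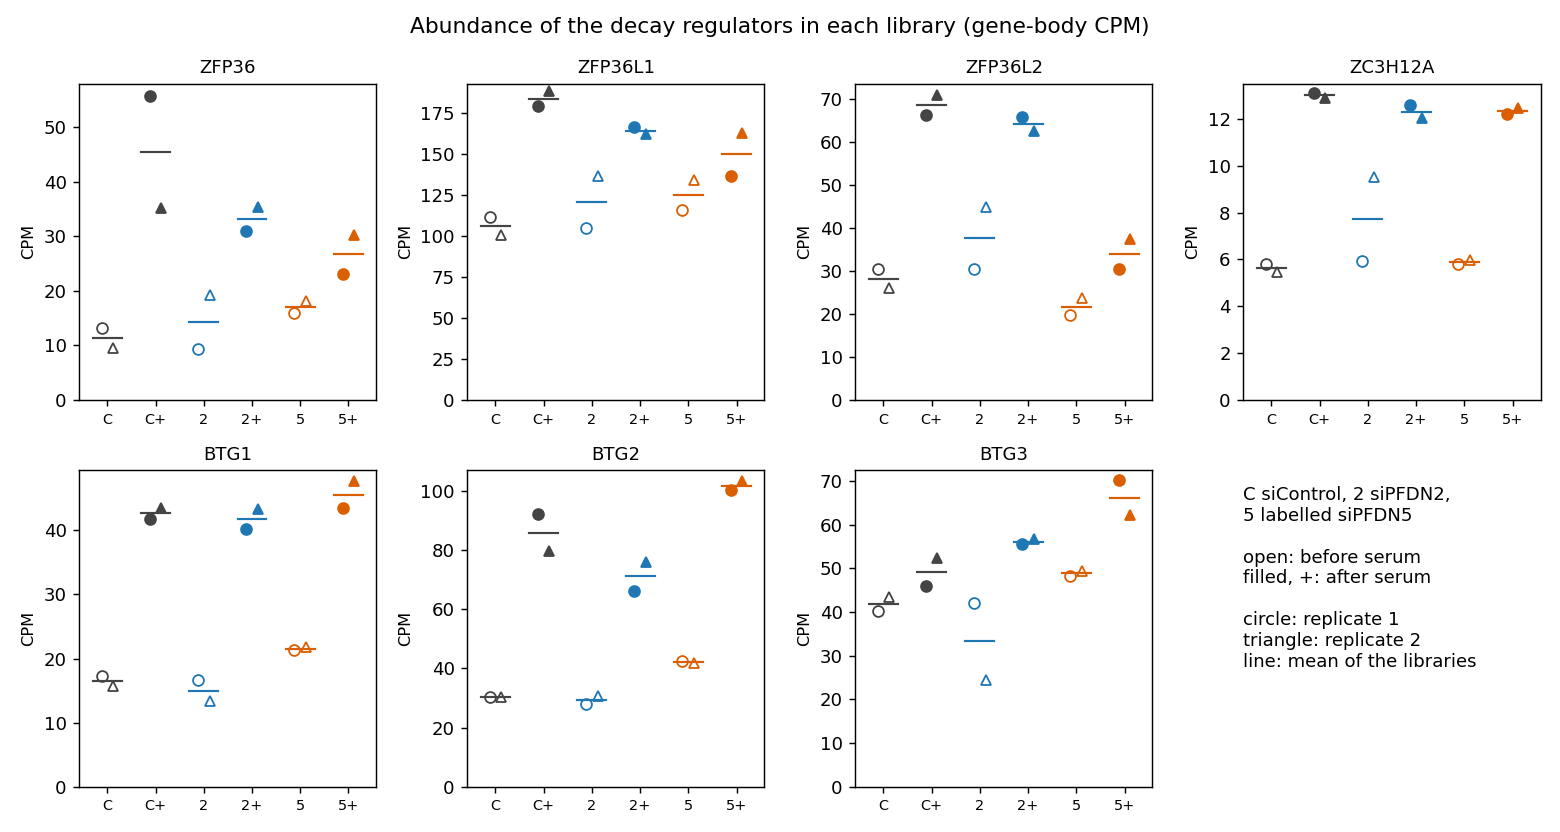
Gene-body CPM of each decay regulator (y axis, from 0) in the 12 libraries, by siRNA (C siControl, 2 siPFDN2, 5 libraries labelled siPFDN5) and time (open symbols before serum, filled symbols and + after). Circles are replicate 1, triangles replicate 2 and lines the mean. Filled symbols lie above open ones within each siRNA for all 7 genes. How many of all genes do so was not counted.

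ZFP36, the best known of the AU-rich binders, stood at 13.1 and 9.52 CPM before serum in siControl and at 55.6 and 35.2 CPM after it. Its log2 fold change was 2.0 (SE 0.33, edgeR adjusted p = 0.00649). In siPFDN2 it stood at 9.38 and 19.3 CPM before and at 31.0 and 35.4 CPM after serum, with a log2 fold change of 1.21 (SE 0.32, adjusted p = 0.0683) that came to 0.80 (not called) without replicate 1 before serum and to 1.82 (called, adjusted p = 0.0498) without replicate 2 before serum. Under the label siPFDN5 it stood at 16.0 and 18.2 CPM before and at 23.1 and 30.3 CPM after serum, with a log2 fold change of 0.64 (SE 0.32, adjusted p = 0.201). The libraries after serum lay above those before it in each siRNA, and the siControl pair after serum was the widest (SD 14.4 CPM, against 3.06 and 5.04 CPM in the other siRNAs). The pair in siPFDN2 before serum differed by more than the factor between siPFDN5 before and after serum. The higher of that pair is the library with the GC trend, and the longest transcript of ZFP36 is 57.3% G and C. A link between these was not tested.

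ZFP36L1, a relative that acts on the same kind of element, was the decay regulator with the highest CPM. It stood at 111 and 101 CPM before serum in siControl and at 179 and 188 CPM after it. In siPFDN2 it stood at 105 and 136 CPM before and at 166 and 162 CPM after serum, and under the label siPFDN5 at 116 and 134 CPM before and at 137 and 163 CPM after. The siControl response was a log2 fold change of 0.79 (SE 0.16, edgeR adjusted p = 0.0259). In siPFDN2 it was 0.45 (SE 0.16, adjusted p = 0.125), and under the label siPFDN5 0.26 (SE 0.16, adjusted p = 0.306). In the last case the gap between the highest library before and the lowest after serum was small next to the spread of either pair. The siControl call was kept in 3 of 12 fits that each left out 1 library.

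ZFP36L2, the other relative, stood at 30.4 and 26.0 CPM before serum in siControl and at 66.2 and 70.9 CPM after it, a log2 fold change of 1.28 (SE 0.20, edgeR adjusted p = 0.00457). In siPFDN2 it stood at 30.4 and 45.0 CPM before and at 65.8 and 62.5 CPM after serum, with a log2 fold change of 0.77 (SE 0.20, adjusted p = 0.0623). Under the label siPFDN5 it stood at 19.7 and 23.6 CPM before and at 30.4 and 37.5 CPM after serum, with a log2 fold change of 0.65 (SE 0.20, adjusted p = 0.0563). Both siPFDN5 libraries before serum were below all 4 other libraries of that time. Both libraries labelled siPFDN5 after serum were below all 4 others of that time, with no overlap.

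ZC3H12A, the endoribonuclease, had the lowest CPM of the 7 genes and close replicates. It stood at 5.79 and 5.46 CPM before serum in siControl and at 13.1 and 12.9 CPM after it, a log2 fold change of 1.21 (SE 0.20, edgeR adjusted p = 0.00656). Under the label siPFDN5 it stood at 5.81 and 6.0 CPM before and at 12.2 and 12.5 CPM after serum, a log2 fold change of 1.06 (SE 0.20, adjusted p = 0.0118). In siPFDN2 it stood at 5.93 and 9.51 CPM before and at 12.6 and 12 CPM after serum, a log2 fold change of 0.67 (SE 0.20, adjusted p = 0.0847). The 6 libraries after serum lay within a narrow range, and before serum 5 of 6 did. The exception is siPFDN2 replicate 2, the library with the GC trend, and the gene's longest transcript, at 61.2% G and C, is the most GC-rich of the 7. Whether GC content accounts for that value was not tested.

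BTG1, which contacts the deadenylases CNOT7 and CNOT8, rose in each siRNA. It stood at 17.3 and 15.8 CPM before and at 41.8 and 43.5 CPM after serum in siControl, at 16.6 and 13.3 CPM before and at 40.2 and 43.3 CPM after in siPFDN2, and at 21.3 and 21.8 CPM before and at 43.5 and 47.6 CPM after under the label siPFDN5. The log2 fold changes were 1.37 (SE 0.15, edgeR adjusted p = 0.000368), 1.48 (SE 0.15, adjusted p = 0.000249) and 1.08 (SE 0.15, adjusted p = 0.00221). After serum the 6 libraries lay between 40.2 and 47.6 CPM, whereas before serum both siPFDN5 libraries were above the other 4.

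BTG2, a p53 target as well as an early response gene, also rose in each siRNA. It stood at 30.5 and 30.4 CPM before and at 92.3 and 79.6 CPM after serum in siControl, at 28.2 and 30.7 CPM before and at 66.2 and 76.0 CPM after in siPFDN2, and at 42.4 and 41.9 CPM before and at 100.4 and 103 CPM after under the label siPFDN5. The log2 fold changes were 1.5 (SE 0.14, edgeR adjusted p = 0.000135), 1.27 (SE 0.14, adjusted p = 0.000446) and 1.27 (SE 0.14, adjusted p = 0.000419). The libraries under the label siPFDN5 were the highest of their time both before and after serum, with no overlap.

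BTG3, the third of the family here, moved least in siControl. It stood at 40.2 and 43.4 CPM before and at 45.9 and 52.4 CPM after serum in siControl, at 42.0 and 24.6 CPM before and at 55.6 and 56.6 CPM after in siPFDN2, and at 48.2 and 49.5 CPM before and at 70.1 and 62.1 CPM after under the label siPFDN5. The log2 fold changes were 0.23 (SE 0.21, edgeR adjusted p = 0.781), 0.75 (SE 0.21, adjusted p = 0.0767) and 0.44 (SE 0.21, adjusted p = 0.189). Its lowest library was siPFDN2 before serum replicate 2. There BTG3 and BTG1, whose longest transcripts are 43.2% and 38.7% G and C, were below the other replicate, while ZFP36, ZFP36L1, ZFP36L2, ZC3H12A and BTG2, at 49.5% or more, were above it. The cause of these deviations was not tested.

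Counts of calls differed with the treatment of that library. In siPFDN2 2 members (BTG1, BTG2) were called higher after serum, against 2.06% of all genes. In a fit of its 2 groups alone 0 were called, against 0.143% (BTG1 adjusted p = 0.154, BTG2 adjusted p = 0.206). With each library's GC trend removed 6 were called (all but ZFP36L1), against 3.98%, and without siPFDN2 before serum replicate 2, 6 were called (all but BTG3), against 2.51%. Under the label siPFDN5 3 were called higher (ZC3H12A, BTG1, BTG2), against 5.72%. There 5 were called with the GC trend removed, against 16.4%, and 5 without that library, against 20.1%, ZFP36L2 and BTG3 being added in both. The 3 calls came to 1 (BTG2) without siPFDN5 before serum replicate 1, and to 2 (BTG1, BTG2) without siPFDN5 before serum replicate 2 or either library labelled siPFDN5 after serum. In siControl the 6 calls came to 2 (BTG1, BTG2) without siControl before serum replicate 2 and to 3 (BTG1, BTG2, ZFP36L2) without siControl after serum replicate 1.

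Averaged over the 3 siRNAs, all 7 genes were called higher, against 7.6% of all genes. The log2 fold changes were 1.35 (SE 0.08, edgeR adjusted p = 1.03e-06) for BTG2, 1.31 (SE 0.09, adjusted p = 2.16e-06) for BTG1 and 1.29 (SE 0.19, adjusted p = 0.0011) for ZFP36. They were 0.98 (SE 0.12, adjusted p = 0.000235) for ZC3H12A, 0.90 (SE 0.11, adjusted p = 0.000443) for ZFP36L2, 0.50 (SE 0.09, adjusted p = 0.00571) for ZFP36L1 and 0.47 (SE 0.12, adjusted p = 0.0264) for BTG3. The median of the 7 was 0.98 and that of all genes tested -0.03. BTG3 lost its call in 9 of 12 fits that each left out 1 library. The other 6 kept theirs in all 12.

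**Figure D2:**
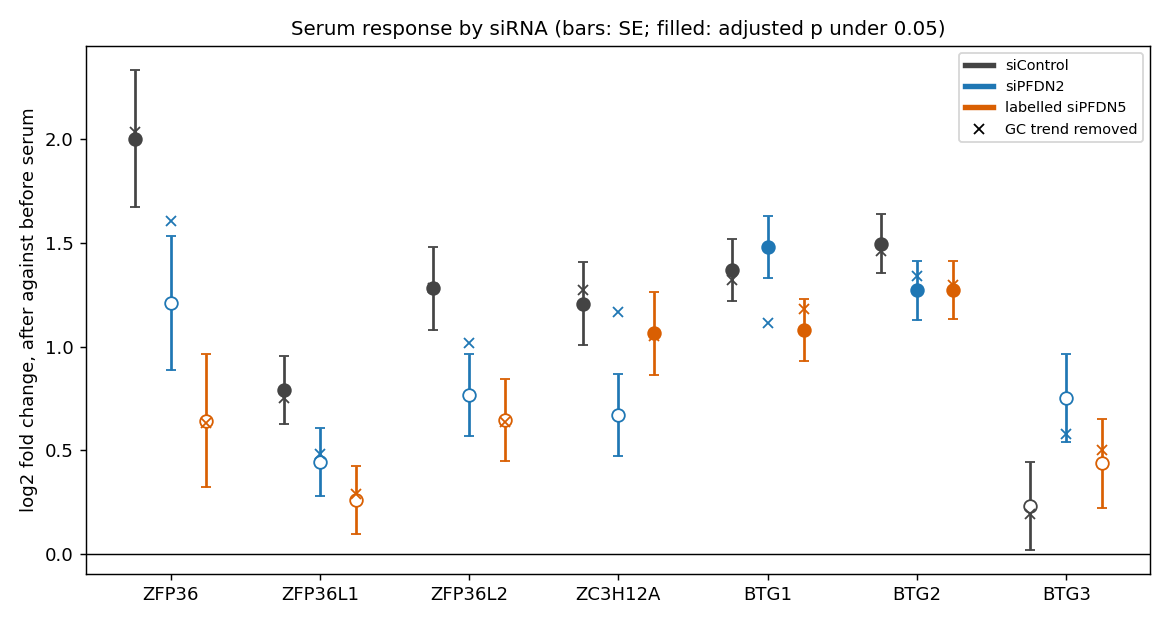
Log2 fold change of each gene after against before serum in each siRNA (y axis), with SE bars; filled points have an edgeR adjusted p under 0.05 and crosses give the value with the GC trend removed. BTG1 and BTG2 are filled in each siRNA, and ZFP36 runs from 2.0 in siControl to 0.64 under the label siPFDN5.

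Levels of different genes were compared per kilobase of exon (RPKM). Before serum in siControl the order was ZFP36L1 at 24.5 ± 1.72 RPKM (SD, n = 2), BTG3 at 17.8 ± 0.721, BTG2 at 13.5 ± 0.00502, ZFP36L2 at 9.33 ± 1.04, ZFP36 at 6.82 ± 1.57, BTG1 at 4.15 ± 0.248 and ZC3H12A at 1.58 ± 0.0498 RPKM. No neighbours in that order overlapped, but ZFP36L2 and ZFP36 differed by less than their summed SDs. After serum the order in siControl was ZFP36L1 at 43.8 ± 0.0162 RPKM, BTG2 at 39.1 ± 5.58, ZFP36 at 28.2 ± 9.97, ZFP36L2 at 23.2 ± 0.239, BTG3 at 20.1 ± 2.93, BTG1 at 11 ± 0.0935 and ZC3H12A at 3.92 ± 0.289 RPKM. ZFP36 there overlapped with BTG2 above it and with ZFP36L2 and BTG3 below it, and ZFP36L1 and BTG2 differed by less than the SD of BTG2. ZFP36L1 ranked highest in 5 of 6 groups and ZC3H12A lowest in 6 of 6. In the libraries labelled siPFDN5 after serum BTG2 ranked highest at 42.8 ± 0.939 RPKM, above ZFP36L1 at 33.1 ± 4.17 RPKM, and ZFP36L2 at 10.6 ± 1.60 RPKM did not differ from BTG1 at 10.8 ± 0.704 RPKM beyond their spread.

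Before serum no member passed the test between siRNAs and siControl. In siPFDN2 against siControl 0 of 7 were called with edgeR, against 0% of all genes. An unadjusted p under 0.05 was found for 1 of the 7 and for 3156 of the 27915 genes tested. DESeq2 called 0, against 0.163%. The values ran from a log2 fold change of -0.33 for BTG3 to 0.46 for ZC3H12A. These came to 0.01 and 0.08 without siPFDN2 before serum replicate 2, and ZFP36 went from 0.34 to -0.27. Without replicate 1 of that group instead, which leaves only the library with the GC trend, 5 were called (BTG1, BTG3, ZC3H12A, ZFP36L1, ZFP36L2), against 41.8% of all genes. In siPFDN5 against siControl 0 of 7 were called with edgeR, against 0.00716% of all genes. An unadjusted p under 0.05 was found for 2 of the 7 and for 3432 of all genes tested. DESeq2 called 0, against 1.36%. There the libraries of the groups did not overlap for any of the 7 genes. With 2 libraries per group such a separation can arise without a difference, and the share of all genes that stood apart was not counted. BTG2 had a log2 fold change of 0.47 (SE 0.14, adjusted p = 0.242), BTG1 of 0.38 (SE 0.15, adjusted p = 0.342), ZFP36 of 0.59 (SE 0.32, adjusted p = 0.491) and ZFP36L2 of -0.38 (SE 0.20, adjusted p = 0.476). Without siPFDN2 before serum replicate 2, which is in neither group but enters the error estimate, BTG1 and BTG2 were called at nearly the same values (0.38 with adjusted p = 0.022 and 0.46 with adjusted p = 0.0128), against 6.96% of all genes.

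After serum ZFP36L2 had the largest difference between siRNAs. In the libraries labelled siPFDN5 it came to 49.5% of its mean in siControl (33.9 ± 5.03 against 68.6 ± 3.37 CPM, SD, n = 2 per group). The log2 fold change was -1.01 (SE 0.20), and edgeR's adjusted p of 0.0685 missed the threshold. ZFP36 was at 58.8% of its siControl mean (26.7 ± 5.04 CPM as compared with 45.4 ± 14.4 CPM, SD, n = 2), with a log2 fold change of -0.77 (SE 0.32, adjusted p = 0.199). ZFP36L1 had -0.29 (SE 0.16, adjusted p = 0.32), ZC3H12A -0.07 (SE 0.20, adjusted p = 0.859), BTG1 0.10 (SE 0.15, adjusted p = 0.745), BTG2 0.24 (SE 0.14, adjusted p = 0.328) and BTG3 0.43 (SE 0.21, adjusted p = 0.266). Both libraries labelled siPFDN5 were thus below both of siControl for the 3 ZFP36 family genes and ZC3H12A, above both for BTG2 and BTG3, and overlapped with them for BTG1. How many of all genes stood apart in this way was not counted.

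In that comparison 0 of 7 were called with edgeR, against 0.00358% of all genes. An unadjusted p under 0.05 was found for 2 of the 7 and for 6032 of the 27915 genes tested. DESeq2 called 1 (ZFP36L2), against 7.75%. With the GC trend removed 2 were called, against 13.5%: ZFP36L2 at -0.98 (adjusted p = 0.00633) and BTG3 at 0.46 (adjusted p = 0.0438). Without siPFDN2 before serum replicate 2, 3 were called, against 23.9%: ZFP36L2 at -1.01 (adjusted p = 0.000363), BTG3 at 0.43 (adjusted p = 0.00434) and ZFP36L1 at -0.29 (adjusted p = 0.0486). PFDN5 itself was at the siControl level in these libraries, so what the label siPFDN5 stands for there cannot be told apart from a difference between libraries. In siPFDN2 against siControl after serum 0 of 7 were called with edgeR, against 0% of all genes. An unadjusted p under 0.05 was found for 0 of the 7 and for 1747 of all genes tested. DESeq2 called 0, against 0.00716%. Values there ran from -0.45 (SE 0.32) for ZFP36 to 0.19 (SE 0.21) for BTG3.

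**Figure D3:**
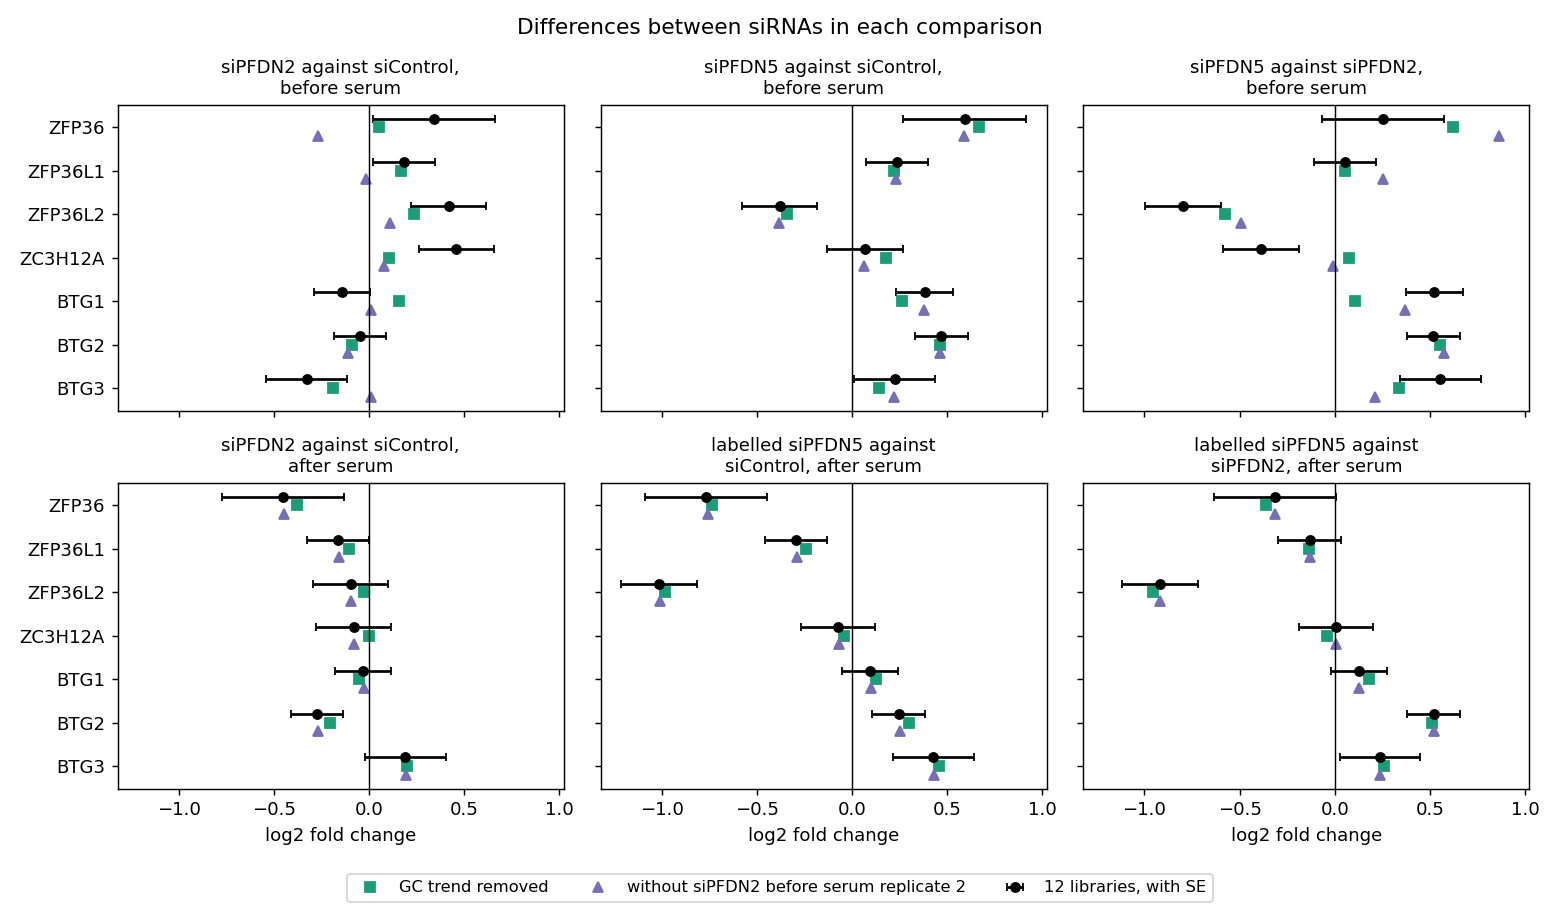
Log2 fold change (x axis) of each gene between siRNAs, before serum (top) and after it (bottom), with all 12 libraries (circles, SE bars), with the GC trend removed (squares) and without siPFDN2 before serum replicate 2 (triangles). ZFP36L2 is near -1 in the libraries labelled siPFDN5 after serum under each treatment, and values against siPFDN2 before serum move with it.

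Set directly against siPFDN2, the libraries labelled siPFDN5 had lower ZFP36L2 and higher BTG2 values at both times, though after serum their PFDN5 was at the siControl level. Before serum ZFP36L2 had a log2 fold change of -0.80 (SE 0.20, edgeR adjusted p = 0.0615), BTG2 of 0.52 (SE 0.14, adjusted p = 0.0671), BTG1 of 0.52 (SE 0.15, adjusted p = 0.0703) and BTG3 of 0.55 (SE 0.21, adjusted p = 0.121). None of the 7 was called (0, against 0.0788% of all genes), 4 had an unadjusted p under 0.05, and DESeq2 called 3, against 16.3%. With the GC trend removed ZFP36L2 (-0.58, adjusted p = 0.0278) and BTG2 (0.55, adjusted p = 0.015) were called, against 6.36%, while BTG1 came to 0.11. BTG2 was called without siPFDN2 before serum replicate 2 (0.58, adjusted p = 0.0211), against 3.16%, and 5 members were called without replicate 1 of that group (BTG1, BTG2, BTG3, ZC3H12A, ZFP36L2), against 47.9%.

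After serum the same comparison gave -0.92 (SE 0.20, edgeR adjusted p = 0.31) for ZFP36L2 and 0.52 (SE 0.14, adjusted p = 0.400) for BTG2. Among all genes tested 2212 had an unadjusted p under 0.05 in this comparison and 8092 before serum. Again 0 of 7 were called, against 0.0179% of all genes, 2 had an unadjusted p under 0.05, and DESeq2 called 1, against 0.451%. With the GC trend removed ZFP36L2 (-0.96, adjusted p = 0.0113) and BTG2 (0.51, adjusted p = 0.0359) were called, against 0.552%. Without siPFDN2 before serum replicate 2 both were called as well, against 4.22%. These comparisons share their siPFDN5 libraries with those against siControl, so their values are not independent.

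The serum response itself was compared between siRNAs by the difference of 2 log2 fold changes. For ZFP36 it was 2.0 in siControl and 0.64 under the label siPFDN5, a difference of -1.36 (SE 0.45, edgeR adjusted p = 0.129). ZFP36L2 had a difference of -0.64 (SE 0.28, adjusted p = 0.225) and ZFP36L1 of -0.53 (SE 0.23, adjusted p = 0.219), and for ZC3H12A, BTG1, BTG2 and BTG3 it lay between -0.29 and 0.20. So 0 of 7 were called, against 0% of all genes. An unadjusted p under 0.05 was found for 3 of the 7 and for 5847 of the 27915 genes tested. DESeq2 called 1 (ZFP36), against 6.59%. With the GC trend removed ZFP36 (-1.41, adjusted p = 0.0438) and ZFP36L2 (-0.64, adjusted p = 0.0475) were called, against 8.69%. Without siPFDN2 before serum replicate 2 ZFP36L1 (-0.52, adjusted p = 0.022) and ZFP36L2 (-0.63, adjusted p = 0.0226) were called, against 21.8%, and ZFP36 had an adjusted p of 0.0509.

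For siPFDN2 the difference from the siControl response was -0.79 (SE 0.45, edgeR adjusted p = 0.582) for ZFP36 and between -0.54 and 0.52 for the other 6 genes. None of the 7 was called (0, against 0% of all genes). An unadjusted p under 0.05 was found for 0 of them and for 1841 of all genes tested. DESeq2 called 0, against 0.00716%. Without siPFDN2 before serum replicate 2 the difference of ZFP36 was -0.18, and without replicate 1 of that group 4 members were called (ZFP36L1, ZFP36L2, ZC3H12A, BTG3), against 37.7%. Both differences use the same siControl libraries, in which ZFP36 after serum stood at 55.6 and 35.2 CPM.

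Reads over introns come mostly from RNA that has not been spliced, and their change was compared with that over exons in a model of both counts with the library as a block. BTG2 had the largest difference of the 7: its exonic counts rose while its intronic counts stayed low. In siControl it had 22 and 20 intronic counts of 2829 and 3248 before serum and 23 and 17 of 7742 and 10712 after it. In siPFDN2 it had 14 and 29 intronic counts before and 6 and 16 after, and under the label siPFDN5 26 and 25 before and 19 and 21 after. The intronic share of its gene-body counts lay between 0.526% and 0.977% in the 6 libraries before serum and between 0.15% and 0.297% in the 6 after it, with no overlap. The intronic response was lower than the exonic one by a log2 difference of -1.46 on average (SE 0.19, edgeR adjusted p = 8.13e-05). It was -1.83 for siControl (SE 0.32, adjusted p = 0.00422), -1.51 for siPFDN2 (SE 0.36, adjusted p = 0.0248) and -1.06 under the label siPFDN5 (SE 0.31, adjusted p = 0.0291).

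ZFP36L1 also had a lower intronic than exonic response in siControl, at -0.80 (SE 0.20, edgeR adjusted p = 0.033), and on average, at -0.42 (SE 0.12, adjusted p = 0.0203). In siPFDN2 the value was -0.52 (SE 0.21, adjusted p = 0.157), and under the label siPFDN5 it was 0.05 (SE 0.21, adjusted p = 0.881). Its intronic share in siControl went from 3.0% and 2.75% before serum to 2.0% and 1.71% after it. In all, 2 of 7 were called lower on average (against 11.5% of 17390 genes), 2 in siControl (against 1.82%), 1 in siPFDN2 (against 2.21%) and 1 under the label siPFDN5 (against 10.7%). ZFP36, ZFP36L2 and BTG1 had at most 54, 52 and 29 intronic counts in a library. Their average differences were -0.16 (SE 0.20, adjusted p = 0.594), -0.57 (SE 0.23, adjusted p = 0.0855) and -0.23 (SE 0.24, adjusted p = 0.523), while under the label siPFDN5 they were 0.56, 0.61 and 0.49, none past the test. ZC3H12A and BTG3, with intronic shares of 17.5% to 32.3% and 11.8% to 29.6%, had average differences of -0.32 (SE 0.15, adjusted p = 0.132) and 0.20 (SE 0.11, adjusted p = 0.207). Within 1 siRNA the BTG2 call was lost when single libraries of that siRNA were left out (siControl before serum replicate 1; siPFDN2 before serum replicate 2 and after serum replicates 1 and 2; each of the 4 labelled siPFDN5), whereas on average it was kept in all 12 such fits.

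**Figure D4:**
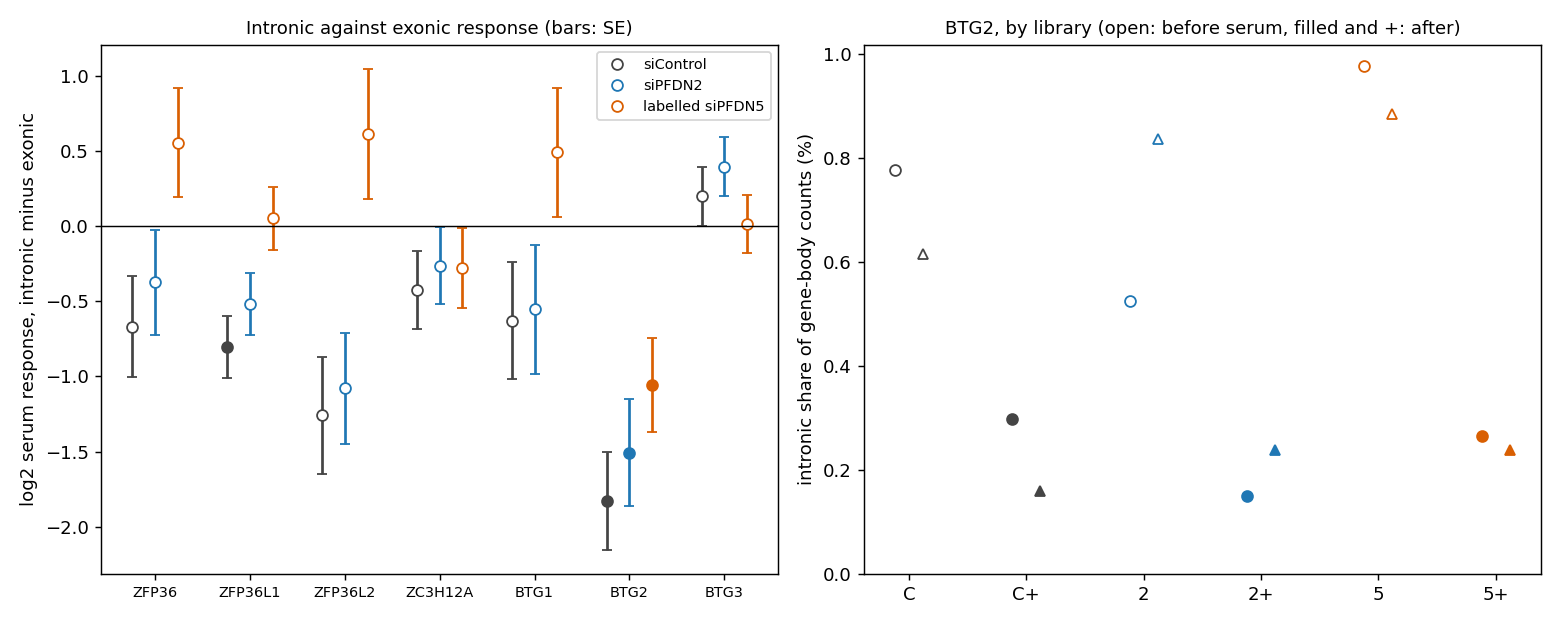
Left, the log2 serum response of intronic counts minus that of exonic counts (y axis) for each gene and siRNA with SE bars, filled where the edgeR adjusted p is under 0.05. Right, the intronic share of BTG2 gene-body counts in percent by library (C siControl, 2 siPFDN2, 5 labelled siPFDN5; + and filled after serum), which lies between 0.526% and 0.977% before serum and between 0.15% and 0.297% after it.

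A single transcript held most of each gene's estimated counts. Over all libraries it was ENST00000597629 with 94.9% for ZFP36, ENST00000439696 with 91.6% for ZFP36L1, ENST00000373087 with 94.4% for ZC3H12A, ENST00000256015 with 95.3% for BTG1, ENST00000290551 with 94.7% for BTG2 and ENST00000348354 with 84.2% for BTG3, and ZFP36L2 has 1 transcript in the annotation. The ZFP36L1 share was 66.7% in siPFDN2 before serum replicate 2 and 90.3% or more in the other 11 libraries. The BTG1 share was 80.0% in that library and 95.5% or more in the others.

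The other genes of the pathway were read from 3 lists. The first held 26 genes of the decay machinery (CCR4-NOT, the TOB proteins, the PAN complex, PARN, decapping factors, the exonuclease XRN1 and PABPC1). Of these, 3 rose and 1 fell in the averaged serum response, where 7.6% of all genes were called higher and 7.31% lower. The list's median log2 fold change of -0.02 was close to the -0.03 of all genes tested. TOB1, a relative of the BTG proteins, rose by 0.40 (SE 0.09, edgeR adjusted p = 0.0134) and the poly(A) ribonuclease PARN by 0.41 (SE 0.11, adjusted p = 0.0295). DCP1B, a cofactor of decapping, fell by 0.51 (SE 0.09, adjusted p = 0.00429), from 17.4 and 17.6 to 9.24 and 10.8 CPM under the label siPFDN5 and from 11.8 and 11.5 to 10.7 and 8.53 CPM in siControl. LSM1, a decapping activator, was the remaining rise (0.34, SE 0.10, adjusted p = 0.0496) and is named after its value was seen. The deadenylases CNOT7 (0.32, SE 0.16, adjusted p = 0.192) and CNOT8 (-0.05, SE 0.11, adjusted p = 0.767) did not pass the test. TOB1, PARN, DCP1B, LSM1, CNOT7 and CNOT8 overlap other genes, whose reads cannot be told apart from theirs.

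Of 14 further AU-rich or stem-loop factors and relatives 13 were tested, and ZC3H12C, a relative of ZC3H12A, rose (0.75, SE 0.13, edgeR adjusted p = 0.00428) as the 1 call, a share near the 7.6% of all genes called higher. It stood at 25.4 and 28.6 CPM before and at 62.5 and 44.1 CPM after serum in siControl, at 27.9 and 16.9 before and 42.9 and 44.5 after in siPFDN2, and at 41.3 and 34.3 before and 45.9 and 46.7 after under the label siPFDN5. The list's median was 0.07, and BTG4 was too low to be tested with 18 counts over all libraries.

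Of 24 messages known as targets of ZFP36 proteins or ZC3H12A 21 were tested, 18 rose on average, against 7.6% of all genes, and 0 fell, against 7.31%, with a median of 1.82. TNF, IL6 and IL10 had 35, 24 and 4 counts over the 12 libraries and were not tested. Some of the 18 were near the floor, as CSF2, CCL20 and CXCL3 with 112, 412 and 530 counts over the 12 libraries. CXCL8 (5.99, SE 0.16), CCL20 (4.89, SE 0.29) and PTGS2 (3.50, SE 0.20) rose more than the genes named next, but their log2 CPM averaged under 3. These genes are named after their values were seen. DUSP1, a phosphatase that ends MAP kinase signalling, rose by 2.75 (SE 0.10, edgeR adjusted p = 1.51e-08), the repressor BHLHE40 by 2.67 (SE 0.13, adjusted p = 1.78e-07) and the transcription factor FOS by 2.36 (SE 0.17, adjusted p = 5.5e-06). DUSP1 and BHLHE40 overlap other genes, whose reads cannot be told apart from theirs. DUSP1 went from 7.28 and 7.0 CPM to 51.3 and 38.8 CPM in siControl. FOS went from 7.17 and 5.83 CPM to 68.2 and 35.5 CPM in siControl and from 9.78 and 10.5 CPM to 20.8 and 26.6 CPM under the label siPFDN5. Many of these targets are known as early response genes themselves. In the comparisons of siPFDN2 and of the libraries labelled siPFDN5 with siControl 0 genes of the 3 lists were called at either time. At most 0.00716% of all genes were called there, so this says nothing particular about the lists. Between siPFDN5 and siPFDN2 before serum 1 target was called, against 0.0788% of all genes. It was CXCL8 (1.93, SE 0.26, edgeR adjusted p = 0.0373), at 1.91 and 1.87 CPM against 0.677 and 0.328 CPM, and is named after its value was seen.

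**Figure D5:**
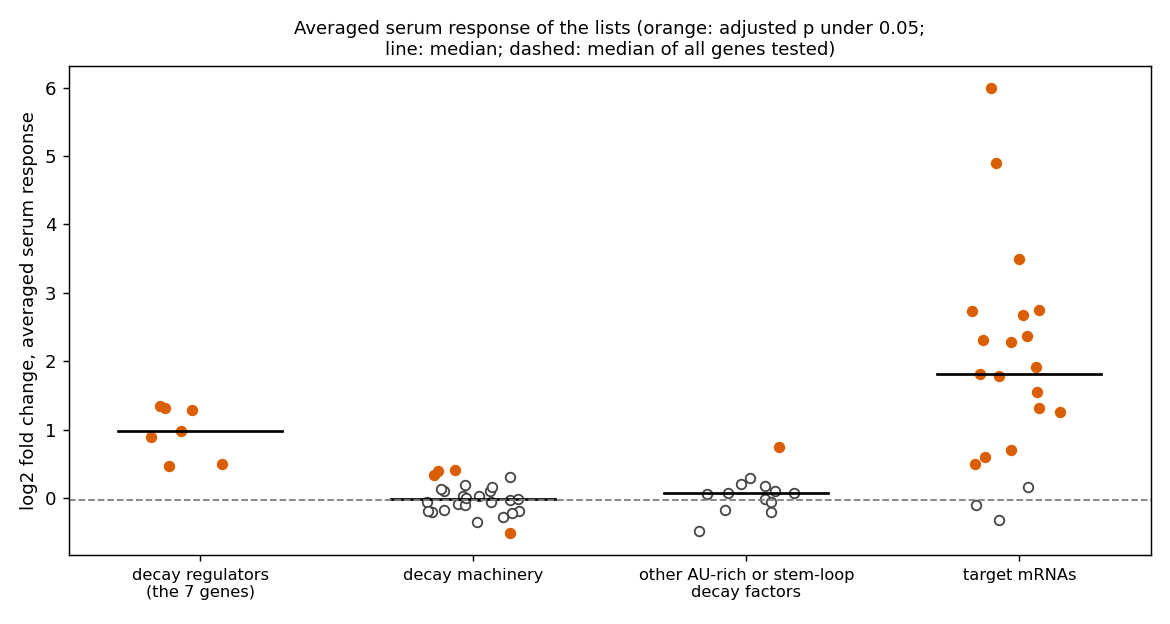
Averaged log2 serum response (y axis) of the 7 decay regulators and of the tested genes of 3 lists, 1 point per gene with random horizontal spread; orange points have an edgeR adjusted p under 0.05, solid lines are list medians and the dashed line is the median of all genes tested. The medians are 0.98 for the 7 genes, -0.02 for the decay machinery, 0.07 for the other factors and 1.82 for the targets.

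The 7 genes did not share 1 pattern over the libraries. Pearson's r over the 12 libraries, on the log2 scale, was 0.97 between BTG1 and BTG2 and 0.96 between ZFP36 and ZFP36L1, but 0.06 between ZFP36L2 and BTG3 and 0.37 between ZFP36 and BTG3. These values describe libraries that share serum state and siRNA. They include siPFDN2 before serum replicate 2, where ZFP36 and ZFP36L2 were above and BTG3 below the other replicate. No correlation was computed without that library. Among 12047 genes with a mean log2 CPM of at least 3, the 2 most like each member over the 12 libraries were IRS2 (0.98) and EGR1 (0.96) for ZFP36, AC008440.2 (0.96) and PER1 (0.96) for ZFP36L1, and TNFRSF21 (0.97) and GJC1 (0.94) for ZFP36L2. They were FOSL1 (0.99) and IFFO2 (0.99) for ZC3H12A, ATF3 (0.99) and REL (0.99) for BTG1, FHL2 (0.99) and GEM (0.98) for BTG2, and DNAJB9 (0.99) and PPP1R2 (0.99) for BTG3. REL is also in the list of target messages. IRS2, AC008440.2, PER1, IFFO2, REL, FHL2, DNAJB9 and PPP1R2 overlap other genes, whose reads cannot be told apart from theirs.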

How the data were processed

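Per the file headers, the authors deposited counts over whole gene bodies and over exons from featureCounts 1.5.2 (Ensembl release 87, GRCh38, both ends mapped, fragments over several genes counted for each, no strand option). The submitters' processing notes also name HISAT2 0.12.2 and kallisto 0.43. Per the labels' protocols, RNA was treated with DNase and depleted of 18S rRNA. The deposited transcript files hold estimated counts, here summed per gene and rounded. The tables' 6 further columns match no sample label and were not used.

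Gene-body counts, 59784425 to 136504590 per library, entered edgeR 4.0.16 (R 4.3.3): filterByExpr, TMM scaling, 6 group means fitted to all 12 libraries (glmQLFit, robust), and 12 contrasts by its quasi-likelihood test, two-sided, with Benjamini-Hochberg adjustment over 27915 genes and calls at an adjusted p under 0.05. Intronic counts are gene-body minus exon counts. CPM and RPKM were computed from the counts with TMM scaling. A GC trend per library (lowess, span 0.3) was removed through offsets as an alternative. DESeq2 1.42.0 was another. Scripts were tested on simulated data, with a spread chosen for the test. In the siControl serum response, 50 of 96 genes simulated with a log2 change of 1 were called, and 104 of 104 with 2. For intronic against exonic counts in siControl, 97 of 200 genes simulated with a log2 change of 1 were called.

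Named beside the 7 genes are PFDN2, PFDN5 and, per list, up to 3 genes per direction with the largest averaged serum response among those called whose log2 CPM averaged 3 or more and whose groups stood apart in every siRNA. The members, lists and tests were chosen with earlier results of these data known. The sequence window of 1 gene is not reported here.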

Additional observations from a re-analysis of the deposited data

How the results depend on the processing

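Under upper-quartile scaling, library size only, DESeq2 size factors, exon counts, at least 10 counts in every library and the replicate block, the counts of called members in the 12 comparisons stayed within 1.5 times those reported, though library size only dropped ZFP36L1 in siControl and BTG3 on average. That scaling moved the median of all genes from -0.03 to -0.17 in the averaged serum response and from -0.04 to -0.20 between the libraries labelled siPFDN5 and siControl after serum. Replicate numbers showed no pairing common to the groups: of 15 correlations of replicate deviations between groups, from -0.32 to 0.59, 4 were over 0.1. The replicate block changed no count by over 1.5 times (6 called in siControl with it and without it). The deviations include trends of single libraries such as that of GC content, so these values cannot decide whether libraries were paired.

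Serum response in siPFDN2 (2 called): 6 with DESeq2, 5 with no filter, 4 with transcript estimates, 6 with the GC trend removed, 7 with the replicate block and the GC trend removed, and 0 in a fit of its 2 groups alone. Under the label siPFDN5 (3 called): 5 with no filter, 5 with the GC trend removed, 5 with the block added to it, and 6 in a fit of the groups alone. In siPFDN5 before serum (0 called) 4 were called in a fit of the groups alone. After serum, label siPFDN5 against siControl (0): 1 with DESeq2, 2 with no filter, 2 with the GC trend removed, 1 with the block added, and 1 with the groups alone. For siPFDN5 against siPFDN2 (0): before serum 3 with DESeq2, 1 with no filter, 2 with the GC trend removed and 2 with the block added; after serum 1, 1, 2 and 1, and 3 with the groups alone. For the serum difference under siPFDN5 (0): 1 with DESeq2, 1 with no filter, 2 with the GC trend removed and 2 with the groups alone. The share of all genes called moved as well where it was counted, as from 5.72% to 16.4% for the serum response under the label siPFDN5 with the GC trend removed. For most of these settings it was not counted, so those counts cannot be set against all genes. The cause of these changes was not tested.

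Leaving out each library in turn, where a group's lone remaining library is assumed to vary like the other groups, gave 2 to 6 calls in siControl, 2 to 6 in siPFDN2, 1 to 5 under the label siPFDN5 and 6 to 7 on average. It gave 0 to 5 in siPFDN2 before serum, where 5 came without replicate 1, which leaves only the library with the GC trend, 0 to 2 in siPFDN5 before serum, 0 to 3 after serum, 0 to 5 and 0 to 2 for siPFDN5 against siPFDN2 before and after serum, and 0 to 4 and 0 to 2 for the serum differences of siPFDN2 and siPFDN5. The highest counts of the siPFDN5 against siPFDN2 comparison before serum and of the siPFDN2 serum difference also came without siPFDN2 before serum replicate 1. For most of these fits the share of all genes called was not counted, so the ranges do not describe the members alone. Calls of intronic against exonic responses ran from 1 to 3 on average, 0 to 4 in siControl, 0 to 2 in siPFDN2 and 0 to 1 under the label siPFDN5. With at least 10 counts in every column these were 1, 1, 0 and 0, where fewer genes were tested; with library size only 4, 1, 4 and 0; with the scaling of the exonic columns 4, 0, 0 and 4. The BTG2 difference on average was called under each of these except where the filter left BTG2 untested.

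The values that changed sign under these settings are not called as reported. BTG1 in siPFDN2 before serum was 0.16 with the GC trend removed and 0.15 with the block added. ZC3H12A in siPFDN5 before serum was -0.00865 with library size only. After serum, BTG1 under the label siPFDN5 was -0.0610 with library size only and -0.015 with exon counts. For siPFDN5 against siPFDN2 before serum, ZFP36L1 was -0.0466 with library size only, -0.042 with no filter and -0.00314 with the groups alone, and ZC3H12A was 0.073 with the GC trend removed, with or without the block. After serum ZC3H12A was -0.021 with upper-quartile scaling, -0.028 with library size only, -0.0067 with no filter, -0.00733 with at least 10 counts, -0.040 with the GC trend removed, with or without the block, and -0.011 with the groups alone. The serum difference of BTG1 under siPFDN2 was -0.018 with library size only, -0.21 with the GC trend removed and -0.20 with the block added. Leaving out single libraries moved values across 0 in siPFDN2 before serum for ZFP36 (-0.27 to 0.76), ZFP36L1 (-0.019 to 0.35), BTG1 (-0.32 to 0.0086), BTG2 (-0.11 to 0.0032) and BTG3 (-0.78 to 0.0086), in siPFDN2 after serum for ZFP36L2 (-0.15 to 0.026) and BTG1 (-0.082 to 0.070), for siPFDN5 against siPFDN2 before serum for ZFP36 (-0.17 to 0.86) and ZFP36L1 (-0.12 to 0.25), after serum for ZC3H12A (-0.022 to 0.037), and for the serum difference of BTG1 under siPFDN2 (-0.036 to 0.29).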
